A study of Mus musculus with 19 samples.

Results

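A group of 10 genes of the Hippo pathway was followed across 19 libraries of mouse stem cell and reprogrammed cell lines that lack the miR-290 microRNA cluster, the miR-302 cluster or both. They were chosen by name, as the kinases Lats1 and Lats2, the coactivators Yap1 and Wwtr1 (which encodes TAZ), their DNA-binding partners Tead1, Tead2 and Tead4, and the response genes Amotl2, Ctgf and Cyr61. All 10 were measured, among 12778 genes. Ctgf and Cyr61 are the names in the data of the genes now called Ccn2 and Ccn1.

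The Hippo pathway is a kinase cascade. The kinases encoded by Stk3 and Stk4, with the scaffold Sav1, activate LATS1 and LATS2, which phosphorylate YAP1 and TAZ so that these stay in the cytoplasm or are degraded. Unphosphorylated YAP1 and TAZ enter the nucleus and bind TEAD factors on DNA, which turns on genes such as Ctgf and Cyr61. Amotl2 and Lats2 are themselves genes of this response and restrain YAP1, so they act as feedback. In the early mouse embryo TEAD4 with nuclear YAP1 directs outer cells to trophectoderm, and Lats2 is known as a target of the miR-290 and miR-302 microRNAs. RNA levels show neither phosphorylation nor the place of a protein in the cell.

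The cells were of different origin and all grown in LIF and FBS. Fibroblasts of mouse embryos were reprogrammed with Oct4, Sox2 and Klf4 to induced pluripotent stem cells (iPSC), which were kept for many passages before collection, and embryonic stem cells (ESC) were derived directly. The iPSC groups were wild type (WT), miR-290 KO, miR-302 KO and the KO of both clusters, called double KO below, and the ESC groups were miR-290 KO and miR-302 KO. Each KO iPSC group had 2 colonies with 2 libraries per colony, WT iPSC had 3 libraries, and each ESC group had 2 libraries. Per the labels each colony was derived on its own except in the WT controls, so WT may stand for 1 derivation, and whether the 2 ESC libraries of a genotype come from separate lines is not clear from the labels. No WT ESC library was used here. QuantSeq reads only the 3′ ends of mRNA. The reads that could be recovered for genes of the matrix summed to 6433259 to 24980302 per library. Levels are in CPM, the reads of a gene scaled to a common library total. They are given per library or as mean ± SD, with n = 2 colonies for KO iPSC, n = 3 libraries for WT and n = 2 libraries for ESC.

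The sequences of the deleted microRNAs are shown first, since both clusters make microRNAs that read the same target letters. RefSeq (GRCm38.p6) gave these mature 3p microRNAs, with the seed (bases 2 to 8) in capitals. The first 3 come from the miR-290 cluster on chromosome 7 and the last 3 from the miR-302 cluster on chromosome 3.
miR-291a-3p: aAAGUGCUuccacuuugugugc
miR-294-3p: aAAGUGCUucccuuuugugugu
miR-295-3p: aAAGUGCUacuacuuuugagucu
miR-302b-3p: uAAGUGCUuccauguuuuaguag
miR-302d-3p: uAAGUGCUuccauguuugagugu
miR-302c-3p: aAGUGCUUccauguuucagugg
Among the 3p arms used here, 3 of the miR-290 cluster and 2 of the miR-302 cluster have the seed AAGUGCU. The mature miR-292a-3p and miR-302a-3p were not used here, so these are not totals of the clusters. In miR-302c-3p the annotated 5′ end lies 1 base further in, and its seed is AGUGCUU. Other 3p arms from the same strand of the miR-290 cluster have the seeds AAGUGCC (miR-290a-3p), AAGUGCA (miR-291b-3p) and GUGCCGC (miR-293-3p), and miR-367-3p of the miR-302 cluster has AUUGCAC. The opposite strand of the miR-290 cluster gives miR-290b-3p (AGUGCCC) and miR-292b-3p (AGAGCCC).

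Matches to AAGUGCU were searched on the transcribed strand of the longest GENCODE M21 3′UTR of each gene. A 7mer-m8 match is AGCACTT, an 8mer is AGCACTTA, and a 7mer-A1 is GCACTTA outside an 8mer. Lats2, Lats1 and Wwtr1 held such matches, and these stretches of 3′UTR are shown because they carry the letters complementary to the seed. Matches are in capitals, and coordinates are of GRCm38 (mm10, the build in the submitters' processing notes).
Lats2, 8mer, chr14:57691076-57691103, minus strand: gtatggaaagAGCACTTAttttgtggat
Lats2, 7mer-m8, chr14:57690978-57691004, minus strand: tgtatctgatAGCACTTgtccacagct
Lats1, 7mer-m8, chr10:7714146-7714172, plus strand: tcagtggtagAGCACTTgcctaacata
Wwtr1, 7mer-m8, chr3:57457012-57457038, minus strand: tctctctctgAGCACTTcaagagagac
Both Lats2 matches lie near the start of a 3′UTR of 1626 bases, at positions 196 and 295 after the stop codon. The match in Lats1 is at position 1147 of 3450, and that in Wwtr1 at position 1899 of 3277. The other 7 members had none of the 3 kinds, including Tead1 with a 3′UTR of 8147 bases. For comparison, 20.7% of 12223 genes with a 3′UTR in the annotation held a match, 3.5% an 8mer and 4.7% 2 or more matches. A match is a string of letters and not a measured binding site.

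Over all genes with a 3′UTR, those with an 8mer had a median log2 change of 0.604 in the double KO against WT, and 41.7% of these 432 genes were higher at an adjusted p under 0.05. The median was 0.368 in the 2095 genes with a 7mer alone (32.6% higher) and 0.098 in the 9696 genes without a match (26.2% higher). In the same order of classes, the medians against WT were 0.294, 0.229 and 0.115 in miR-290 KO iPSC. In miR-302 KO iPSC they were −0.076, −0.085 and −0.117. The classes were not matched for 3′UTR length. These are descriptions over all genes, beside which the changes of Lats1, Lats2 and Wwtr1 below can be read.

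The labelled cell types were checked on 12 pluripotency genes. Their summed level was between 3262 and 5388 CPM in the libraries of WT iPSC, single KO iPSC and ESC, and between 78.6 and 122 CPM in the double KO, where all 12 were lower than in WT. The 4 largest falls were those of the pluripotency factors Esrrb (−8.94 on the log2 scale), Dppa2 (−8.93), Utf1 (−8.75) and Nanog (−8.10). Nanog had 2.38 ± 0.431 CPM there against 684 ± 36.3 in WT. The cells labelled as double KO iPSC thus held these defining markers of pluripotent cells at a small share of their level in WT, and every double KO value below is from such cells. Of 14 fibroblast genes, 6 were measured and none was at 0 in every library of a group. They summed to 319 to 1020 CPM in the double KO and 242 to 691 CPM elsewhere, with Thy1 (−3.86), Pdgfrb (−2.72) and Col5a1 (−1.54) lower in the double KO than in WT on the log2 scale. Twist1 (2.55, adjusted p 0.0508, SE 1.00), Col1a1 (−1.92, adjusted p 0.123, SE 0.98) and Fn1 (−0.05, adjusted p 0.915, SE 0.35) were not called. Most of the summed level was Fn1, which had 673 ± 473 CPM in double KO colonies and 609 ± 86.1 CPM in WT. The part of this change of cell state in the results was not tested, and in bulk RNA fewer cells of a type and less RNA per cell cannot be told apart.

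A single library stood apart. Library 2 of colony 1 of miR-302 KO iPSC differed from library 1 by 3 or more on the log2 scale in 10.9% of all genes, against 0.196% to 2.48% in the other 5 colonies. Its 20 most abundant genes took 17.1% of its reads (8.62% to 13.5% elsewhere). It had 3 reads of Lats2 (0.27 CPM) where library 1 had 178 reads, and 23.9 CPM of Yap1 against 167 CPM. The tests on miR-302 KO iPSC were therefore repeated with library 1 alone for this colony, an alternative added after the data were seen.

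In the double KO, 9 of the 10 genes were higher than in WT iPSC and Yap1 was not called. The rises were largest in Lats2 (15.4-fold) and Cyr61 (11.7-fold) and smallest in Tead2 (1.46-fold). The median log2 change of the 10 genes was 2.02, beside 0.16 over all genes. A gene was called at an adjusted p under 0.05 (limma, Benjamini-Hochberg over all 12778 genes), and by this rule 49.0% of all genes differed between the double KO and WT and 27.4% were higher. Against miR-290 KO iPSC 6 members were higher, where 32.4% of all genes were called and 15.6% were higher, and against miR-302 KO iPSC 8 were, where 46.9% were called and 28.5% were higher. None of the 10 was called in either single KO against WT. The comparisons share samples, the WT libraries among them. Under median-of-ratios scaling the median change of all genes in double KO against WT was 0.02 in place of 0.16, and the share of called genes that were higher was 49.4% in place of 56.0% there and 49.7% in place of 60.8% against miR-302 KO. All 10 members kept their sign against WT. With library 1 alone for miR-302 KO colony 1, the count against miR-302 KO was again 8.

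**Figure D1:**
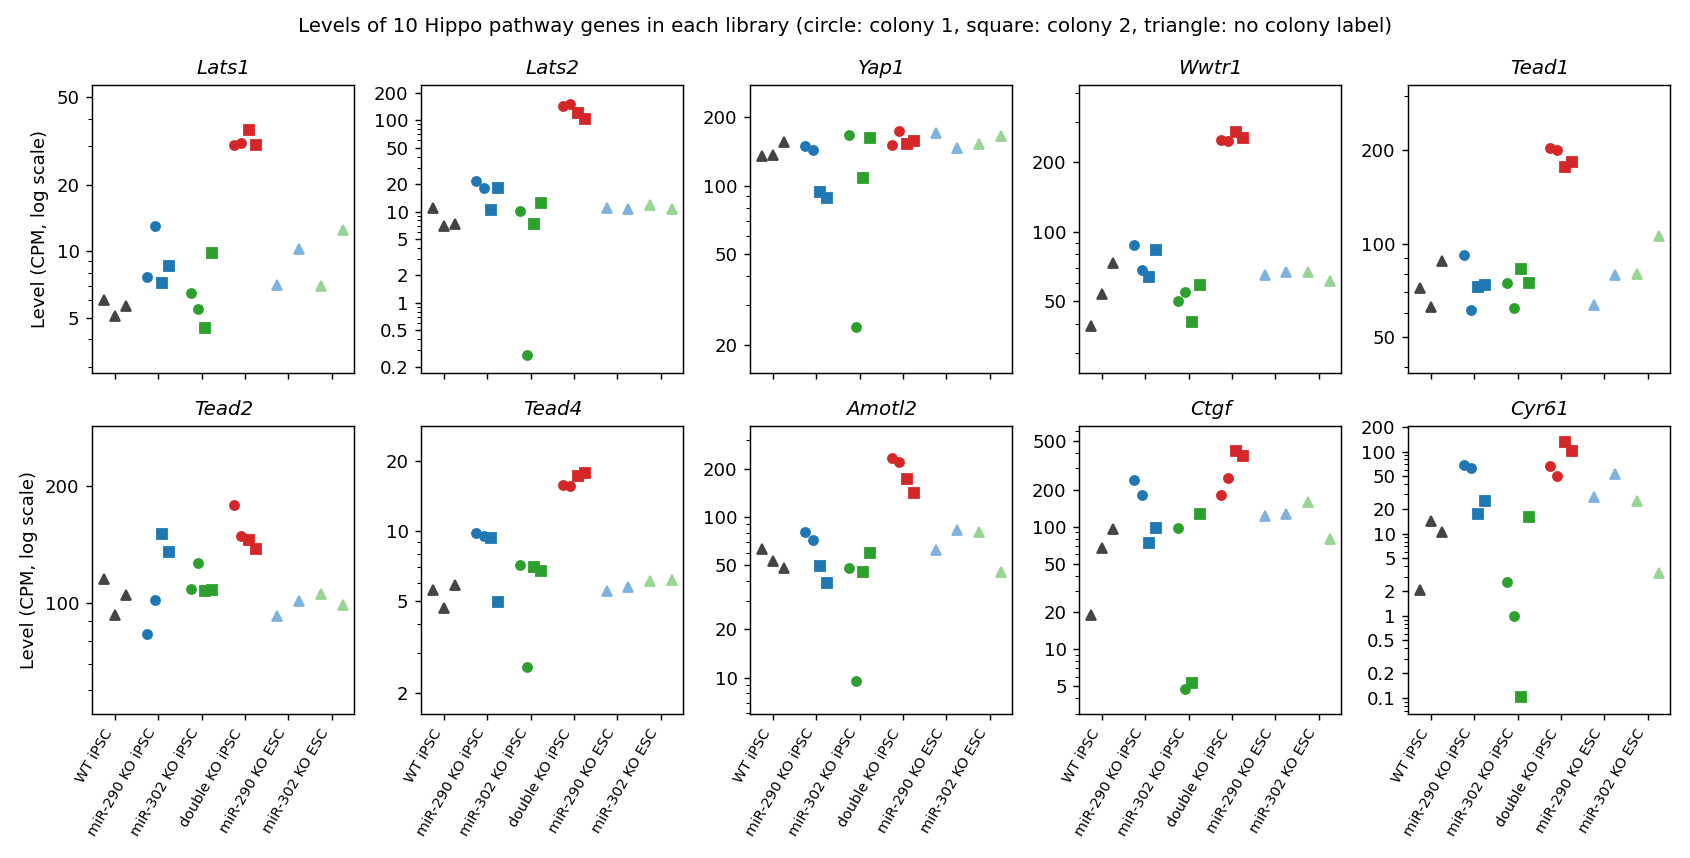
Level of each gene in each of 19 libraries (vertical log axis, CPM), by group, with 1 point per library. Double KO libraries (red) lie above all others for Lats1, Lats2, Wwtr1, Tead1, Tead4 and Amotl2, and the low green points are library 2 of colony 1 of miR-302 KO iPSC and, for Ctgf and Cyr61, also colony 2 library 1.

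Of the kinases, Lats2 had 4 double KO libraries at 143, 152, 119.5 and 104 CPM and 3 WT libraries at 10.9, 6.95 and 7.22 CPM. The miR-290 KO iPSC libraries were at 21.5, 18.2, 10.5 and 18.0 CPM, and the miR-302 KO iPSC libraries at 10.2, 0.270, 7.39 and 12.2 CPM. The 4 ESC libraries ran from 10.6 to 11.7 CPM. Every double KO library was thus above every other library. The next group, the miR-290 KO iPSC, overlapped the ESC and WT libraries through its library at 10.5 CPM. Its colony means of 19.9 and 14.2 CPM lay above the ESC and WT libraries. In the test, the double KO stood at a log2 fold change of 3.95 (adjusted p 4.05e-05, SE 0.49) against WT and 2.95 (adjusted p 0.00132, SE 0.54) against miR-290 KO. Against miR-302 KO it was 4.85 (adjusted p 1.94e-05, SE 0.54), and 3.68 with library 1 alone for colony 1.

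Lats1, the other kinase of this step, had 30.4, 30.9, 35.5 and 30.2 CPM in the double KO libraries and 6.03, 5.11 and 5.64 CPM in WT. The remaining 12 libraries ran from 4.48 to 13.1 CPM, so that the double KO again did not overlap any group. Its rise on the log2 scale was 2.48 (adjusted p 4.79e-05, SE 0.32) against WT, 1.82 (adjusted p 0.00169, SE 0.35) against miR-290 KO and 2.31 (adjusted p 0.000196, SE 0.35) against miR-302 KO (2.25 with library 1 alone). Among the other 5 groups the means were between 5.59 (WT) and 9.75 CPM (miR-302 KO ESC), and neighbours in that order overlapped.

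Yap1, the coactivator that LATS kinases restrain, differed little between WT and double KO. Its libraries were at 135, 136 and 155 CPM in WT and at 151, 173, 152 and 157 CPM in the double KO. Between them the log2 fold change was 0.16 (adjusted p 0.67, SE 0.28), with a 95% interval of −0.45 to 0.76, which does not reach the values of Lats1 or Wwtr1. In the miR-290 KO iPSC the libraries were at 149, 144, 94.0 and 88.1 CPM, with colony 2 below colony 1. In the miR-302 KO iPSC they were at 167, 23.9, 108 and 162 CPM, and the ESC libraries ran from 147 to 169.7 CPM. Neighbouring groups overlapped. Compared with miR-302 KO, the log2 fold change was 0.79 (adjusted p 0.0501, SE 0.31), and it was 0.09 (adjusted p 0.763) with library 1 alone for colony 1, while it was called without colony 2 (1.32, adjusted p 0.0024). It was also called without miR-290 KO colony 1 (0.79, adjusted p 0.0405) or colony 2 (0.79, adjusted p 0.0406).

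Wwtr1, which encodes the related coactivator TAZ, rose where Yap1 was not called. The double KO libraries were at 249, 247, 271 and 256 CPM, with the 2 colonies at nearly the same level, and the WT libraries at 39.1, 54.1 and 73.0 CPM. The miR-290 KO iPSC libraries were at 88.2, 68.4, 64.0 and 83.5 CPM and the miR-302 KO iPSC libraries at 50.3, 54.8, 40.9 and 59.2 CPM. All 4 double KO libraries lay above every other library, with no overlap. Wwtr1 rose by 2.25 (adjusted p 7.37e-06, SE 0.23) on the log2 scale against WT, 1.76 (adjusted p 0.000204, SE 0.25) against miR-290 KO and 2.33 (adjusted p 1.51e-05, SE 0.25) against miR-302 KO (2.36 with library 1 alone). The library of miR-302 KO that stood apart had 54.8 CPM of Wwtr1, inside the range of its group. The difference between the changes of Wwtr1 and Yap1 was not tested.

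The TEAD factors, which bring YAP1 and TAZ to DNA, were all higher in the double KO than in WT, by different amounts. Tead1 had 203, 201, 177 and 183 CPM in double KO libraries and 72.0, 62.5 and 87.9 CPM in those of WT, and 61.3 to 106 CPM in the other libraries, with no overlap. Its log2 fold change was 1.38 (adjusted p 0.000147, SE 0.20) against WT, and 1.36 and 1.38 against the miR-290 and miR-302 KO, the latter 1.31 with library 1 alone. Tead4, the factor of the trophectoderm, had 15.9, 15.6, 17.3 and 17.9 CPM in double KO libraries and 5.60, 4.69 and 5.84 CPM in those of WT. The log2 fold change was 1.61 (adjusted p 0.000776, SE 0.30). All double KO libraries were above the other 15, which ran from 2.61 to 9.80 CPM. Against miR-290 KO the change of Tead4 was 1.02 (adjusted p 0.0303, SE 0.33). It was not called without double KO colony 1 (1.10) or colony 2 (0.94) or without miR-290 KO colony 2 (0.78). Fewer of all genes were called in each of these settings too.

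Tead2 stood at the edge of the test. The double KO libraries were at 178, 149, 145 and 138 CPM, the WT libraries at 115, 93.0 and 105 CPM and the miR-290 KO iPSC libraries at 83.2, 102, 150.4 and 136 CPM. Double KO and WT did not overlap, but 1 library of miR-290 KO colony 2 lay within the double KO range and the other just below it. Against WT the log2 fold change was 0.54 (adjusted p 0.0438, SE 0.21), and the call was lost in 11 of 24 alternatives. Among these was median-of-ratios scaling, with 0.41 (adjusted p 0.145). The removal of any 1 WT library or double KO colony, with log2 fold changes of 0.44 to 0.65, also ended the call. So did that of either miR-290 KO ESC library. Fewer of all genes were called after each of these removals. Against miR-290 KO Tead2 was not called (0.40), but was without miR-290 KO colony 2 (0.72, adjusted p 0.0448). The calls of Lats1, Lats2, Wwtr1, Tead1, Tead4, Amotl2, Ctgf and Cyr61 against WT held in all 24.

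Amotl2, which encodes an angiomotin that binds YAP1 and is itself a YAP1 response gene, had 232, 221, 174 and 141 CPM in the double KO. The WT libraries were at 63.7, 53.3 and 47.9 CPM, and the other 12 ran from 9.53 to 83.5 CPM, all below the double KO. The test gave 1.78 (adjusted p 0.00197, SE 0.38) against WT, 1.70 (adjusted p 0.00762, SE 0.41) against miR-290 KO and 2.48 (adjusted p 0.000406, SE 0.41) against miR-302 KO, on the log2 scale. With library 1 alone for miR-302 KO colony 1, the last was 1.90. The call against miR-290 KO was lost without double KO colony 1 (1.43) or miR-290 KO colony 2 (1.29), where fewer of all genes were called too.

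Ctgf and Cyr61 encode secreted matrix-associated proteins and are the standard read-outs of YAP1 and TAZ activity. Ctgf had 180.3, 251, 417 and 377 CPM in the double KO libraries, with colony 2 above colony 1, and 19.2, 66.9 and 96.3 CPM in WT. Its miR-290 KO iPSC libraries were at 239, 183, 73.4 and 98.1 CPM, and those of colony 1 lay inside the double KO range. In the double KO the log2 fold change was 2.54 (adjusted p 0.00317, SE 0.58) against WT and 3.60 (adjusted p 0.000614, SE 0.63) against miR-302 KO, but 1.12 (adjusted p 0.197, SE 0.63) against miR-290 KO. The miR-302 KO iPSC libraries were at 96.9, 4.77, 5.35 and 126 CPM, with 1 library of each colony low. With library 1 alone for colony 1, the last comparison with miR-302 KO gave 2.52.

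Cyr61 had the same order of group means as Ctgf. It had 67.2, 50.0, 129 and 102 CPM in double KO libraries, 2.05, 14.4 and 10.5 CPM in those of WT and 67.6, 62.9, 17.5 and 25.0 CPM in miR-290 KO iPSC. The miR-302 KO iPSC libraries were at 2.57, 0.989, 0.102 and 16.1 CPM, and the third of these rests on 2 reads. The miR-290 KO ESC were at 27.7 and 53.8 CPM and the miR-302 KO ESC at 25.2 and 3.35 CPM. The double KO was above all WT and miR-302 KO libraries but shared its range with colony 1 of the miR-290 KO and 1 miR-290 KO ESC library. For the double KO the log2 fold change was 3.55 (adjusted p 0.00471, SE 0.86) against WT, 5.45 (adjusted p 0.00055, SE 0.95) against miR-302 KO (5.14 with library 1 alone) and 1.14 (adjusted p 0.39, SE 0.95) against miR-290 KO. Over 13 samples Ctgf and Cyr61 had a Pearson r of 0.935, a description of samples that share their group differences. Within groups both genes spread widely: WT library 1 was the lowest of the WT libraries in both, at 19.2 and 2.05 CPM.

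**Figure D2:**
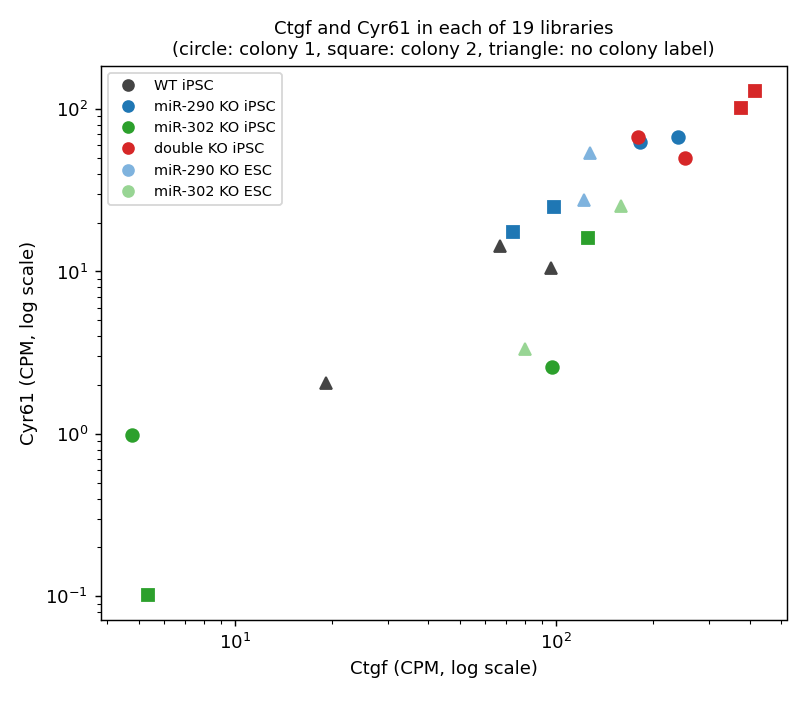
Ctgf (horizontal log axis, CPM) against Cyr61 (vertical log axis, CPM), with 1 point per library. The lowest points in both genes are 2 miR-302 KO iPSC libraries, 1 from each colony, and the highest are the double KO libraries of colony 2.

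The single KO groups were compared with WT to ask whether the loss of 1 cluster moved these genes. In miR-290 KO iPSC 0 of the 10 were called (limma, and 0 also with limma voom on recovered reads), where 1.57% of all genes were. An unadjusted p under 0.05 was found in 2 members and in 2136 of all 12778 genes. The 2 members were Ctgf (1.41, adjusted p 0.245, SE 0.58) and Cyr61 (2.41, adjusted p 0.184, SE 0.86). Lats2 had a log2 fold change of 1.00 (adjusted p 0.337, SE 0.49) with an interval of −0.08 to 2.07, and 9 of 10 members had a positive value, with a median of 0.54 beside 0.14 over all genes. In miR-302 KO iPSC 0 of 10 were called by either method, where 0.0313% of all genes were. An unadjusted p under 0.05 was found here in 1928 of all 12778 genes and in 2 members. These 2 were Yap1 (−0.63, adjusted p 0.319, SE 0.28) and Cyr61 (−1.90, adjusted p 0.328, SE 0.86).

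Several values of miR-302 KO against WT moved with the library that stood apart. Lats2 had −0.90 (adjusted p 0.392, SE 0.49) with both libraries of colony 1, and 0.26 with library 1 alone. Yap1 went from −0.63 to 0.07, Amotl2 from −0.70 to −0.12 and Ctgf from −1.06 to 0.01. Cyr61 moved less, from −1.90 to −1.58 (adjusted p 0.606), Tead4 went from 0.03 to 0.38 and Lats1 from 0.17 to 0.23. Without colony 2 the group rested on colony 1 alone, which holds the library that stood apart. Lats2 was then at −2.02 and Yap1 at −1.16, and many more of all genes were called than with both colonies. Wwtr1, Tead1 and Tead2 moved little, at −0.08, near 0 and 0.11 with both libraries and −0.11, 0.07 and 0.06 with 1.

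**Figure D3:**
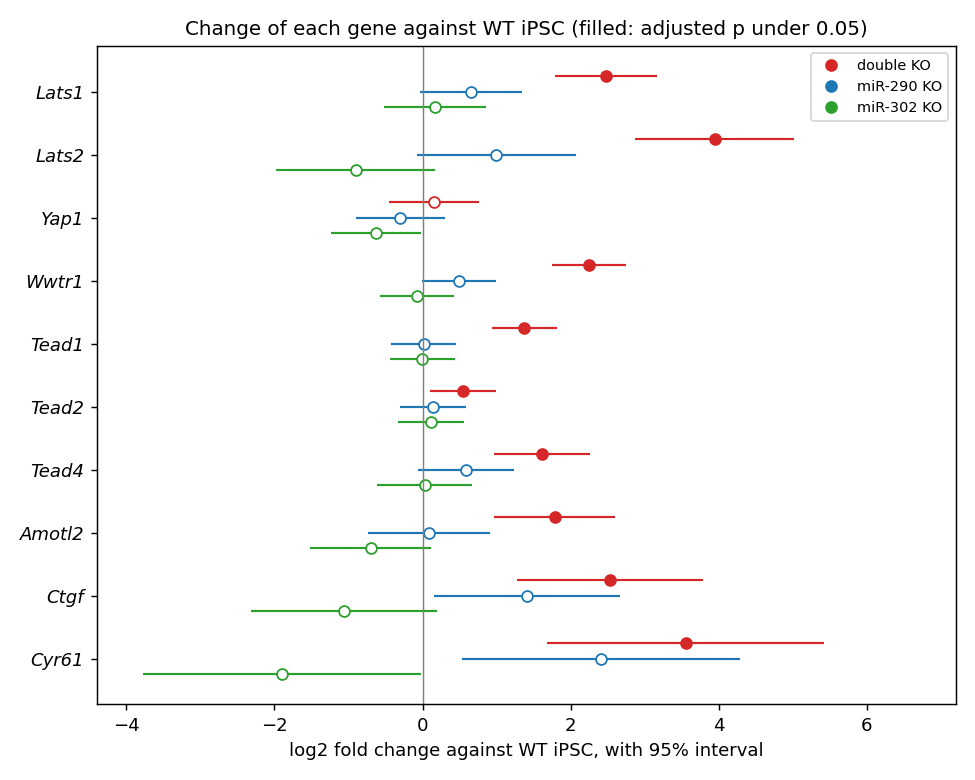
Log2 fold change of each gene against WT iPSC (horizontal axis, with the 95% interval) for double KO, miR-290 KO and miR-302 KO iPSC, with filled points at an adjusted p under 0.05. Only double KO points are filled, for 9 of the 10 genes, and Yap1 stays near 0 at 0.16.

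Between the single KO groups, 1 member was called, where 2.25% of all genes were (1.85% higher in miR-290 KO, where 82.6% of the called genes were higher, or 61.2% with median-of-ratios scaling). Cyr61 was higher in miR-290 KO than in miR-302 KO iPSC by a log2 fold change of 4.31 (adjusted p 0.0382, SE 0.95), or 19.9-fold. This compares averages of log2 values, which include miR-302 KO libraries of 2 and 11 reads. Mean levels were 43.2 ± 31.1 and 4.95 ± 4.48 CPM, and limma voom gave 3.01 (adjusted p 0.122). The 4 miR-290 KO libraries lay above the 4 of miR-302 KO, the nearest at 17.5 and 16.1 CPM. With library 1 alone for miR-302 KO colony 1 the log2 fold change was 4.0 (adjusted p 0.0493). The call was lost in 11 of 24 alternatives, limma voom among them. It was lost without miR-290 KO colony 1 (3.50) or colony 2 (5.13) and without miR-302 KO colony 1 (4.22). Fewer of all genes were called without any of these colonies too. The call was also lost without WT library 3 (4.31, adjusted p 0.0524), which only enters the estimate of the spread. Leaving out either library of miR-290 KO ESC did the same (4.31, adjusted p 0.0578 and 4.31, adjusted p 0.0575). Lats2 (1.90, adjusted p 0.0849, SE 0.54) and Ctgf (2.48, adjusted p 0.0616, SE 0.63) were not called, and both were smaller with library 1 alone for miR-302 KO colony 1, to 0.74 and 1.4. Without miR-302 KO colony 2, the change of Lats2 was 3.01, and many more of all genes were called than with both colonies. Without WT library 1 Ctgf was called (2.48, adjusted p 0.0232).

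Whether the double KO went beyond the sum of the single KO changes was tested as an interaction on the log2 scale. The departure was called in 5 of 10 members, all upward, where 23.6% of all genes departed and 12.0% did so upward. It was 3.85 (adjusted p 0.00294, SE 0.73) in Lats2, 2.40 (adjusted p 0.00952, SE 0.56) in Amotl2 and 1.84 (adjusted p 0.00246, SE 0.34) in Wwtr1. Lats1 (1.66, adjusted p 0.0245, SE 0.47) and Tead1 (1.36, adjusted p 0.00705, SE 0.30) made up the 5. With library 1 alone for miR-302 KO colony 1, the departure of Lats2 was 2.69 (adjusted p 0.000455) and that of Amotl2 1.82 (adjusted p 0.0101), and Lats1 (1.6), Wwtr1 (1.87) and Tead1 (1.29) were called too. Lats1 lost its call without any 1 of 4 colonies, where fewer of all genes departed too. Without double KO colony 1 or 2 its values were 1.70 and 1.61. Its value was 1.48 without miR-290 KO colony 2 and 1.58 without miR-302 KO colony 1.

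Amotl2 was not called without miR-290 KO colony 2 (1.99), where fewer of all genes departed too. The other 5 members were not called, with log2 departures of 1.09 in Yap1, 0.29 in Tead2, 0.99 in Tead4, 2.19 in Ctgf and 3.04 in Cyr61. Ctgf (2.87, adjusted p 0.00885) and Cyr61 (3.88, adjusted p 0.0309) were called without WT library 1, in which both were low. Yap1 was called without miR-290 KO colony 1 (1.43, adjusted p 0.0416) and without miR-302 KO colony 2 (1.62, adjusted p 0.00542), and so was Tead4 in the latter (1.32, adjusted p 0.0436). Of the 5 called members, Lats1, Lats2 and Wwtr1 hold a seed match and Tead1 and Amotl2 do not. Over all genes the upward departure was called in 16% of those with an 8mer, 13.8% of those with a 7mer alone and 11.6% of those without a match.

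**Figure D4:**
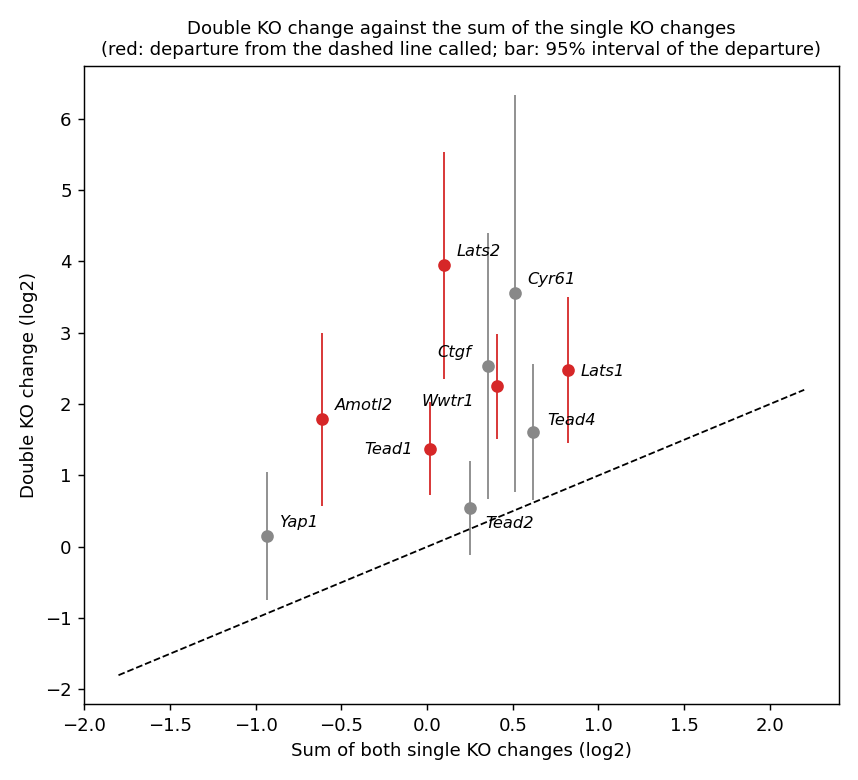
Log2 change of the double KO against WT (vertical axis) over the sum of the miR-290 KO and miR-302 KO changes (horizontal axis), with 1 point per gene and the 95% interval of its departure from the dashed line of equality. Red points are the 5 genes with a called departure, with Lats2 farthest above the line at 3.85.

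The ESC groups gave another origin for each single KO genotype. Between miR-290 KO iPSC and ESC 0 of 10 members were called, where 0% of all genes were called (limma, and 0 members also with limma voom). An unadjusted p under 0.05 was found in 0 members and in 492 of all 12778 genes. Between miR-302 KO iPSC and ESC 0 were called, where 0% of all genes were called. An unadjusted p under 0.05 was found in 4 members and in 1343 of all 12778 genes. The 4 were Lats2 (−1.33), Yap1 (−0.80), Ctgf (−2.24) and Cyr61 (−2.33), all lower in iPSC, and with library 1 alone for colony 1 these log2 values were −0.17, −0.10, −1.16 and −2.02. Without colony 2, with colony 1 alone in the group, Lats2 was at −2.45 and Yap1 at −1.33. Many of all genes were called in that setting, unlike with both colonies. Between the miR-290 KO and miR-302 KO ESC 0 members were called, where 0.587% of all genes were called. An unadjusted p under 0.05 was found in 0 members and in 1632 of all 12778 genes. The largest value was that of Cyr61 (2.04, interval −0.01 to 4.10), and its 2 miR-302 KO ESC libraries differed from each other (25.2 and 3.35 CPM).

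Other genes of the pathway were read from lists. Of 27 core kinases and upstream inputs, 26 were measured, and in the comparison of double KO with WT 11 rose and 0 fell. Their median change was 0.61 on the log2 scale, beside 0.16 over all genes (27.4% of all genes higher). The largest were Dchs1, an atypical cadherin (9.88 ± 10.3 against 0.154 ± 0.162 CPM, log2 fold change 4.69, adjusted p 0.00154, SE 0.96), and Ptpn14, a phosphatase that binds YAP1 (271 ± 2.99 against 27.9 ± 6.58 CPM, 3.30, adjusted p 5.09e-07, SE 0.25). The atypical cadherin Fat1 (2.15, adjusted p 0.000116, SE 0.31) and the LIM protein Limd1 (2.07, adjusted p 3.93e-05, SE 0.26), which binds LATS kinases, followed. Dchs1 differed strongly between the double KO colonies, as its SD shows. The kinases Stk3 (0.56, adjusted p 0.253, SE 0.39) and Stk4 (0.09, adjusted p 0.792, SE 0.25), directly above LATS, were not called. Of 3 measured nuclear partners, all 3 were higher, namely the TEAD cofactors Vgll3 (4.05, adjusted p 0.00272, SE 0.90) and Vgll4 (2.77, adjusted p 0.00436, SE 0.67), and Tead3 (1.90, adjusted p 0.0347, SE 0.68). Of the 26 upstream genes, 15 were not called. The pluripotency genes were lower in the same libraries, and their part was not tested.

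Of 22 genes listed as YAP and TAZ targets 20 were measured. In the double KO against WT 14 were higher and 2 lower (27.4% and 21.5% of all genes), and their median change was 2.30 on the log2 scale, beside 0.16 over all genes. Amotl2, Lats2, Ctgf and Cyr61 are on this list too, and Ptpn14 is on it and among the upstream inputs. Igfbp3, which encodes a binding protein of insulin-like growth factors, had the largest rise, from 5.47 ± 2.65 to 1038 ± 365 CPM (log2 fold change 7.62, adjusted p 2.43e-07, SE 0.53). Axl, a receptor tyrosine kinase, went from 2.70 ± 0.416 to 142 ± 98.5 CPM (5.46, adjusted p 1.63e-06, SE 0.47) and Nt5e, an ectonucleotidase, from 3.29 ± 0.496 to 47.8 ± 4.83 CPM (3.81, adjusted p 1.25e-05, SE 0.41). Fjx1 (−3.19, adjusted p 0.000255, SE 0.51) and Nuak2 (−1.57, adjusted p 0.0374, SE 0.57) were lower. Ankrd1 (1.53, adjusted p 0.133, SE 0.80), Tgfb2 (0.88, adjusted p 0.456, SE 0.93), Ccdc80 (0.79, adjusted p 0.584, SE 1.11) and F3 (−0.06, adjusted p 0.969, SE 1.12) were not called.

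In the single KO groups the same list had 3 genes higher in miR-290 KO, Myof (3.09), Nt5e (2.23) and Ptpn14 (1.19), and 1 in miR-302 KO, Myof (3.75), and 0 lower in either, where 1.21% and 0.0235% of all genes were higher. The median log2 change was 1.29 in miR-290 KO beside 0.14 over all genes, and −0.70 in miR-302 KO beside −0.11. The calls in miR-290 KO numbered 0 to 4 over the alternatives. They were fewer without either miR-290 KO colony, where fewer of all genes were called too. Without any 1 WT library 1 listed gene was called, where 46 to 82 of all 12778 genes were, against 201 with all samples. The calls of listed genes in miR-302 KO numbered 0 to 3 and hung on single colonies, and without colony 2 many more of all genes were called too. The departure from additivity was called upward in 9 of the 20 genes and downward in 2, Myof and Fjx1, beside 12.0% upward and 11.7% downward over all genes.

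**Figure D5:**
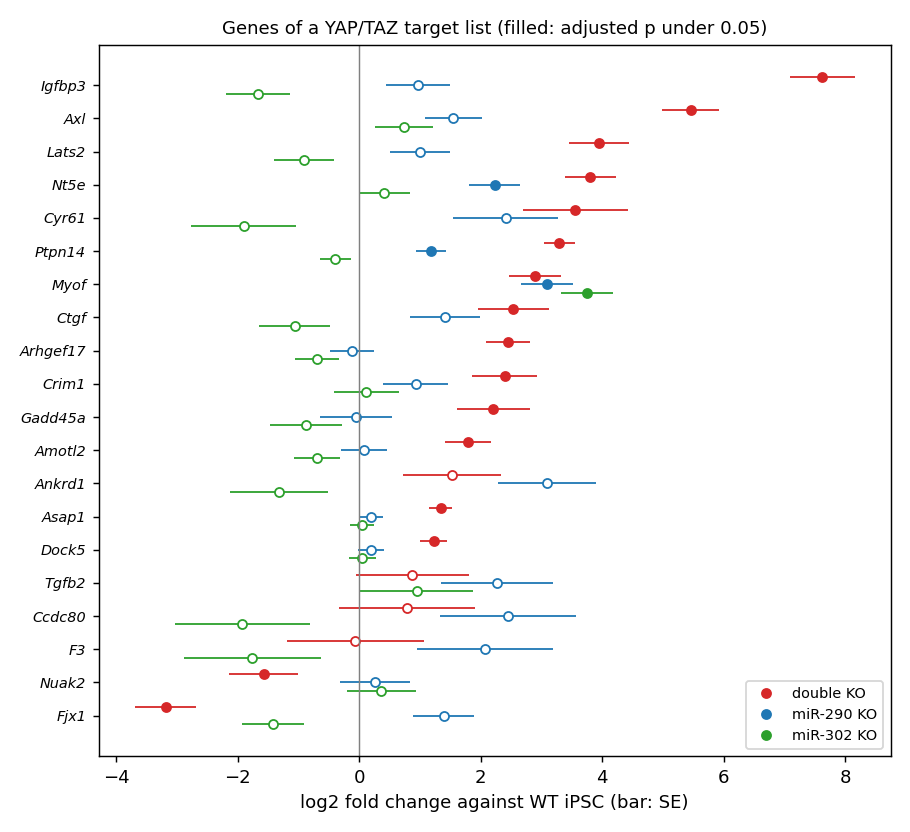
Log2 fold change against WT iPSC (horizontal axis, bars are SE) of 20 YAP and TAZ target genes in double KO, miR-290 KO and miR-302 KO iPSC, with filled points at an adjusted p under 0.05. Double KO points run from Fjx1 at −3.19 to Igfbp3 at 7.62, and Myof is filled in all 3 genotypes.

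Marker genes of trophectoderm, the lineage to which TEAD4 and YAP1 direct cells, were not called higher in the double KO. The list was not limited to genes that depend on TEAD4 or YAP1. Of 7 listed genes 6 were measured, and in the double KO against WT 0 were higher and 4 lower, where 21.5% of all genes were lower. Their summed level was 13.9 to 67.2 CPM in double KO libraries and 102 to 957 CPM elsewhere. The keratins Krt18 (−6.91, adjusted p 7.29e-06, SE 0.71) and Krt8 (−6.20, adjusted p 1.20e-05, SE 0.67) had the largest falls on the log2 scale, followed by the transcription factors Tfap2c (−3.55, adjusted p 0.00291, SE 0.80) and Gata3 (−1.50, adjusted p 0.00235, SE 0.33). Cdx2, a trophectoderm factor downstream of TEAD4, had 11.2 ± 15.0 CPM in double KO cells and 3.20 ± 2.00 CPM in WT and was not called (0.30, adjusted p 0.837, SE 1.09). Eomes was not called either (−0.04, adjusted p 0.942, SE 0.36). In miR-290 KO iPSC Gata3 was higher than in WT (2.35, adjusted p 0.00689, SE 0.33). The call was lost without miR-290 KO colony 2, as were nearly all calls over all genes in this comparison. Gata3, Tfap2c, Krt8 and Krt18 are also expressed in the pluripotent groups, as their levels in WT of 5.92 ± 1.64, 83.8 ± 40.9, 102 ± 107 and 66.2 ± 75.2 CPM show.

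The promoters were read for the TEAD motif, since several members are known targets of TEAD. RefSeq windows from 250 bases before to 50 after the transcript start were at hand for 7 members, and 5 of these held CATTCC or its reverse complement GGAATG, the core that TEAD factors bind. Of all 32851 such windows, 14.7% held it, a share per window, while a member counted if any of its windows held the motif. These stretches are shown with the motif in capitals, on the strand of the gene, because they stand upstream of the start in a coactivator or a response gene. Coordinates are those of the whole window in GRCm38.p6.
Yap1, chr9:8004547-8004846, minus strand: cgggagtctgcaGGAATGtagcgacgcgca
Wwtr1, chr3:57575861-57576160, minus strand: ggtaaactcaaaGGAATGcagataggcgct
Amotl2, chr9:102717554-102717853, plus strand: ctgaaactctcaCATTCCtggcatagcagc
Cyr61, chr3:145649936-145650235, minus strand: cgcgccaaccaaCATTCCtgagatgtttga
The motif begins at −141 in Yap1, −136 in Wwtr1 (−170 from another annotated start), −65 in Amotl2 and −103 in Cyr61, counted from the annotated start. In Lats2 it lies just inside the transcript, 5 bases after the start, and the window of another annotated start of Lats2 held none. The windows of Lats1 and Tead2 held none either. Of the 5 members with the motif, Lats2, Wwtr1, Amotl2 and Cyr61 were called higher in the double KO and Yap1 was not, and both members without it were called too. No test was made of this. A match is a description of letters and not of binding.

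In the authors' deposited table of double KO against WT, which lists genes at an adjusted p of at most 0.05, 8 of the 10 members appear, all with positive values. The authors' deposited table gives a log2 fold change of 3.65 (SE 0.24) for Lats2, 2.21 (SE 0.21) for Lats1 and 1.92 (SE 0.19) for Wwtr1. Yap1 and Tead2 are not in it, and the authors' deposited tables of miR-290 KO and miR-302 KO against WT hold 0 members. The total number of genes in these tables is not given here, so the member counts lack a background. For scale, the share of all genes with an adjusted p under 0.05 in limma was 49.0% for the double KO. It was 1.57% for miR-290 KO and 0.0313% for miR-302 KO, each compared with WT iPSC.

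Genes with patterns most like those of 3 members were found by Pearson correlation of the log2 values over 13 samples, among 11864 genes of at least 1 CPM. For Lats2 they included Ctnnd2 (0.979) and Med14 (0.979), for Yap1 they were Sec13 (0.972), Myo19 (0.961) and Klhl20 (0.952), and for Ctgf Gm15800 (0.958), Mettl10 (0.952) and Rgmb (0.952). Among the members, Lats2 was most like Tead4 (0.950) and Amotl2 (0.935), and Yap1 was most like Amotl2 (0.652). The samples share group differences and, for Lats2, Yap1 and Ctgf, the low values of 1 library, so these figures are descriptions. Ctgf was also low in library 1 of miR-302 KO iPSC colony 2 (5.35 CPM).

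The members lie on GRCm38 at chr10:7681214-7716460 (Lats1, plus strand), chr14:57689662-57758388 (Lats2, minus), chr9:7931999-8004596 (Yap1, minus), chr3:57455649-57575910 (Wwtr1, minus), chr7:112679318-112906807 (Tead1, plus), chr7:45215753-45233644 (Tead2, plus), chr6:128224288-128300823 (Tead4, minus), chr9:102716672-102733418 (Amotl2, plus), chr10:24595442-24598683 (Ctgf, plus) and chr3:145646976-145649981 (Cyr61, minus). Reads of 7 of the 10 members could include those of other genes. GENCODE M21 places genes on the opposite strand over Lats2, Yap1, Wwtr1, Tead1, Tead2 (Cd37), Tead4 and Ctgf, and genes on the same strand over Lats2 (Gm49361) and Tead1 (Gm44462). Whether the counting used strand is not given in the sources used here. Lats1, Amotl2 and Cyr61 have no such neighbour.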

How the data were processed

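QuantSeq libraries were deposited as 1 expression matrix. The authors used Trim Galore 0.66, STAR, Salmon 1.4.0, FastQC 0.11.9, MultiQC, limma and DESeq2 1.34.0 and the build mm10, per the submitters' processing notes, which give no order. The deposited matrix is called a count matrix and holds log2 CPM, with on average 2.41 reads added as a prior and 1 constant per gene common to all libraries. The values themselves show this, since for 12235 of 12778 genes (95.8%) a constant turned at least 13 of the 19 libraries into whole reads within 0.02, and 99.7% of their values were whole. CPM is recovered reads over library sizes read from the matrix. Because the deposited unit is log2 and not counts, the main test was not a count test, and limma voom on recovered reads was an alternative. The authors' deposited comparison tables hold log2 fold changes with p-values and adjusted p-values, per the file headers, limited to an adjusted p of 0.05. In the matrix 6 columns were not used.

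Pluripotency and fibroblast genes checked the labelled cell types. The 2 libraries of a colony were averaged, which gave 13 samples in 6 groups and 7 residual degrees of freedom. All genes were tested with limma 3.58.1 (R 4.3.3) in 10 comparisons of the deposited log2 values, with the spread following a trend on the mean and Benjamini-Hochberg adjustment over 12778 genes. A log2 fold change includes the prior and so understates changes of weakly expressed genes. The estimate of the spread is common to colonies, WT and ESC libraries, and p-values measure only the spread between these samples. The script was tested on simulated data. Alternatives were 9 other settings, the removal of each of 13 samples or colonies, and 2 added after the data were seen. Reads copied by PCR are not separate molecules. The members, lists and comparisons were chosen with earlier results of these data known. All 10 members were named in every comparison, and in the other lists the 4 largest changes called in double KO against WT (all where 4 or fewer were called), with genes of known role added after their values were seen (Stk3, Stk4, Cdx2, Eomes, the 4 uncalled and 2 lower YAP targets, Myof). The 3 genes most like Lats2, Yap1 and Ctgf were named by correlation, and 1 of those for Lats2 is not reported here.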

Additional observations from a re-analysis of the deposited data

Results flagged for a closer look

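In each gene and each KO iPSC group of 4 libraries, the highest and the lowest library were set against the range of the group (Dixon's test, 95% limit), and 6 of 30 groups held a library far from the other 3. The range was taken on log2 values, while CPM are printed below. For 4 independent libraries chance alone picks out about 1 in 20 groups. Here the libraries come in pairs from 2 colonies, so that rate need not hold. Of the 6, 4 were from 1 library. In miR-302 KO iPSC, library 2 of colony 1 had 4 genes far from the others. Lats2 at 0.27 CPM, Tead4 at 2.61 CPM and Amotl2 at 9.53 CPM were low, and Tead2 at 126.35 CPM was high. In miR-290 KO iPSC, in library 2 of colony 2, which had the fewest reads of all, Tead4 was low at 4.97 CPM. In colony 2 library 1 of the double KO, Lats1 was high at 35.51 CPM, which is a small distance above the other 3 (30.2 to 30.9 CPM).

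The double KO change differed from the sum of the single KO changes, by the interaction test of limma, in Lats1 (1.66), Lats2 (3.85), Wwtr1 (1.84), Tead1 (1.36) and Amotl2 (2.4), all on the log2 scale.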

How the results depend on the processing

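Of the 29 calls of members over the 10 comparisons, 23 held in all 24 alternatives, and every called value kept its sign in each. The number of members called ran from 8 to 9 for double KO against WT, 4 to 6 against miR-290 KO and 8 to 9 against miR-302 KO, and was 0 in every alternative for miR-290 KO against WT, miR-290 KO iPSC against ESC and between the ESC groups. Between the single KO groups 1 call became 0 with no trend of the spread, with estimated sample weights, with the replicate number as a replicate block, with limma voom and with only library 1 for miR-290 KO colony 2, became 2 with log2(CPM + 1), and ran from 0 to 2 with 1 sample left out. With 1 sample left out, miR-302 KO against WT had 0 to 2 calls, miR-302 KO iPSC against ESC 0 to 2, both with 2 without colony 2, and the departure from additivity 3 to 7, with 3 without miR-290 KO colony 2. Where a colony was left out, the lone colony was assumed to vary like the other groups. Without miR-302 KO colony 2, many more of all genes were called as well, both against WT and against ESC. Without miR-290 KO colony 2, fewer of all genes departed from additivity. The cause of these changes was not tested. The replicate block ended the calls of Tead2 (0.55, adjusted p 0.101) against WT, of Tead4 (1.02, adjusted p 0.0542) against miR-290 KO and of Lats1 (1.65, adjusted p 0.0547) in the departure from additivity. Between samples of the same number the correlation of deviations ran from −0.267 to 0.184 and was over 0.1 in 4 of 30 pairs. In groups of 2 the deviations mirror each other, so these pairs are not separate checks. No clear pairing by number was seen, and a batch that follows other numbers was not tested. The list counts for double KO against WT ran from 14 to 17 for YAP and TAZ targets, 8 to 12 for upstream inputs, 2 to 3 for nuclear partners and 4 to 5 for trophectoderm genes. Counting error is wide where reads are few, as for Cyr61 in miR-302 KO iPSC, with 2 reads in library 1 of colony 2 and 11 in library 2 of colony 1.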

Other observations

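The 2 double KO colonies were close in some genes and far apart in others. The 4 libraries spanned 30.2 to 35.5 CPM in Lats1 and 247 to 271 CPM in Wwtr1, while over the 2 colonies Axl had 142 ± 98.5 CPM, Dchs1 9.88 ± 10.3 CPM and Cdx2 11.2 ± 15.0 CPM. Myof, a ferlin membrane protein on the YAP and TAZ list, was high in miR-302 KO cells of both origins, with 70.0 ± 11.8 CPM in iPSC and 66.4 ± 8.16 CPM in ESC. In miR-290 KO it had 43.7 ± 6.34 CPM in iPSC and 5.98 ± 2.06 CPM in ESC, and in WT iPSC 4.98 ± 0.712 CPM. In colony 2 of the miR-302 KO iPSC, library 1 minus library 2 was −4.52 in Ctgf and −6.06 in Cyr61 on the log2 scale, while 2.48% of all genes differed by 3 or more between these libraries.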
